A study of Mus musculus with 12 samples.

Results

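The genes described here encode enzymes that process foreign compounds: cytochromes P450 of families 1 to 4 (Cyp1 to Cyp4), carboxylesterases (Ces), UDP-glucuronosyltransferases (Ugt1a and Ugt2), cytosolic and kappa glutathione S-transferases (Gst) and sulfotransferases (Sult). They were chosen by the form of the gene symbol alone, which picked 153 of the 55335 entries in each of the 2 count tables, all protein-coding. The Cyp family had 75 members (3 Cyp1, 48 Cyp2, 7 Cyp3 and 17 Cyp4), the Ces family 17, the Ugt family 19 (9 Ugt1a and 10 Ugt2), and the Gst and Sult families 21 each.

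Drug metabolism is commonly divided into phases. Phase I enzymes oxidise a compound (P450s, which take electrons from the reductase Por) or split its ester bonds (carboxylesterases). Phase II enzymes attach glucuronic acid, glutathione or sulfate, and export pumps then remove the product. The absorptive cells of the small intestine, the enterocytes, carry many of these enzymes and meet swallowed compounds before the liver does. Receptors that sense foreign compounds, such as AHR, PXR (Nr1i2) and CAR (Nr1i3), are known regulators of many of these genes.

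Bulk RNA-seq was done on small intestinal organoids, which hold epithelium without the gut's connective tissue and were kept in a gel of basement membrane proteins. They came from a female Lgr5GFPDTR/+ mouse, in which 1 copy of the stem cell gene Lgr5 carries sequences for GFP and the diphtheria toxin receptor. All 12 libraries came from 1 line, line26, labelled wild type, at day 6. ENR control organoids (3 libraries) grew in medium with EGF, Noggin and R-spondin1. The other groups first spent 3 days with the GSK3 inhibitor CHIR99021 (3 µM) and valproic acid (1.5 mM), which inhibits histone deacetylases, then 1 day in ENR medium. They then received 100 ng/mL RANKL, the cytokine that induces M cells, alone (RANKL and RANKL II, 3 libraries each) or with 40 µM CSRM617 hydrochloride, a compound known to target ONECUT2, a transcription factor (RANKL+CSRM617, 3 libraries). The protocol names neither CHIR99021 nor valproic acid for the ENR control, but the control's sample names begin with CVENR, a prefix the labels do not spell out. RANKL and this pretreatment therefore cannot be told apart in the first comparison. Replicates were 3 separate differentiation experiments of the same line, not separate animals.

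Libraries held 5795541 to 14041947 counts, of which the members took 0.196% to 0.355%. Mitochondrial genes took 5.43% to 7.96% of counts in ENR control, and 2.52% to 2.89% in RANKL. They took 6.04–6.11% without CSRM617 (RANKL II) and 8.61–11.04% with it. Ribosomal RNA loci took 21.9% to 35.5% of counts in ENR control and 9.71% to 10.7% in RANKL, and took 6.44–6.71% in RANKL II and 15.3–15.8% in RANKL+CSRM617. The part of both shares in the results was not tested. In bulk samples, fewer cells of a type and less RNA per cell cannot be told apart. The tissue label held: enterocyte genes such as Apoa4 (143 CPM in ENR control, mean of 3) and Sis (488 CPM) were high. Of the 5 hepatocyte markers, Alb, Serpina1a and Fgb were at 0 in all 12 libraries, Apoh was at most 0.768 CPM and Ttr was 18.6 to 86.0 CPM. Of the stromal and endothelial list, Col3a1 and Cdh5 were at 0 and Col1a1, Pecam1 and Pdgfra at most 2.8 CPM. CPM here are counts relative to the TMM-scaled library size within a table.

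Many of the listed genes were near silent in these organoids. No count was found for 33 of the 153 members in any library, and 42 more had counts but too few for a test in either comparison. Tests were made for 71 members in the RANKL comparison and 77 in the CSRM617 comparison, 70 in both and 78 in either. The Gst family was detected almost whole, with 20 of 21 members tested in at least 1 comparison. Tests covered 29 of 75 Cyp, 13 of 17 Ces, 11 of 19 Ugt and 5 of 21 Sult members. The untested members stayed at or below 2.5 CPM in every library, a level reached by Cyp2c70 in ENR control. Sult1a1, a phenol sulfotransferase, did not exceed 1.15 CPM in a library. Since the reads were 42 bases long, near-identical genes could not always be separated: 22 of the 78 tested members shared over 20% of their 42-base words with another gene, and the 6 tested Ugt1a genes share at least 50% of their exon bases, so their values are uncertain.

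The leading member changed between groups when levels were set per kilobase of exon (RPKM), leaving out genes with such exon overlap. In ENR control, Ces2a led at 295 ± 12.98 RPKM (SD, n = 3), ahead of Gsto1 at 83.01 ± 6.51 and Ces2e at 54.3 ± 2.79. In RANKL, Ugt2b34 led at 92.1 ± 8.46 RPKM, and the next, Gsta4 at 78.8 ± 3.45 and Gsto1 at 71.5 ± 7.63, lay within about 1 SD of each other. Ugt2b34 also led in RANKL II at 158 ± 1.12 RPKM, before Cyp2c55 at 127 ± 4.25, and in RANKL+CSRM617 at 109 ± 7.71, before Gsto1 at 86.3 ± 0.2603 and Cyp4f14 at 79.4 ± 0.904. Ces2a shares 21.8% of its 42-base words, mostly with the pseudogene Gm7208.

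**Figure D1:**
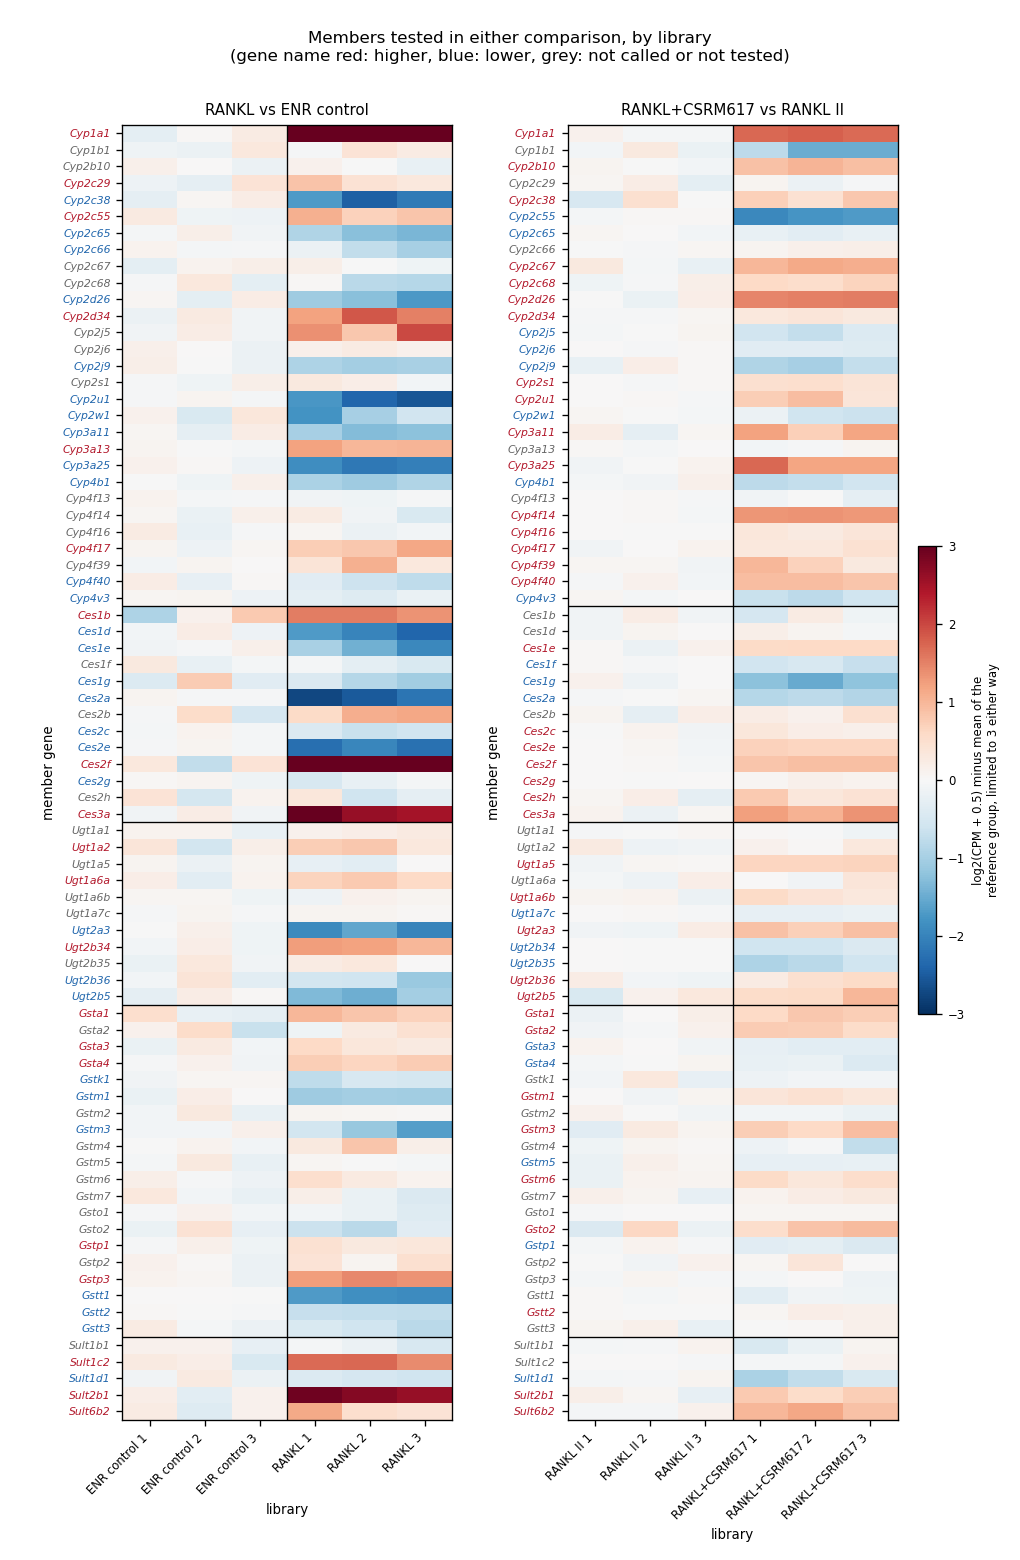
Heat maps of the 78 members tested in either comparison (rows, by family) in 12 libraries (columns), as log2(CPM + 0.5) minus the mean of the ENR control libraries (left) or the RANKL II libraries (right), limited to 3 either way. Gene names in red were called higher, in blue lower; Ces2f, Cyp1a1 and Sult2b1 stand out as higher and Ces2a and Ces2e as lower with RANKL, and Cyp2c55 as lower with CSRM617.

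In RANKL against ENR control, 20 of the 71 tested members were higher and 29 lower at an adjusted p under 0.05 by edgeR's quasi-likelihood test over all genes. Among all 13570 genes tested, 28.7% were higher and 28% lower, 56.7% in all, against 69% of the members. With at least a 2-fold change, 10 members were higher and 18 lower, where 11.1% and 6.66% of all genes passed. The libraries of the 2 groups did not overlap for 45 of the 49 called members (91.8%), beside 96.5% of all called genes. The median absolute log2 change was 0.73 over the members and 0.42 over all genes tested. Phase I genes were called lower more often than higher, 19 against 9 of 37 tested with a median log2 change of -0.32. Phase II genes were even, with 11 called higher and 10 called lower among 34 (median 0.04). The median over all genes tested was 0.00. DESeq2 called 17 members higher and 25 lower, beside 24.9% and 24.4% of all genes. With offsets that remove the trend of each library with transcript GC content, 20 members were higher and 31 lower, beside 26.8% of all genes each way. Of the 49 calls, 45 kept their direction, none reversed, and Cyp2c29, Cyp2w1, Gsta3 and Sult6b2 were lost, while 6 members were called with these offsets alone (Cyp2c68, Cyp2s1, Ugt2b35, Gstm4, Gstp2 and Sult1b1).

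Carboxylesterases had the largest median absolute change of the 5 families. Of 11 tested Ces members, 3 were higher and 7 lower, 3 and 5 of them by at least 2-fold, and their median absolute change was 1.99 on the log2 scale. Summed over the family, Ces transcripts were 1094, 1071 and 1023 CPM in the ENR control libraries and 354, 384 and 438 in the RANKL libraries. Most of that difference was in Ces2a, an esterase of the gut that alone made up 65.5% of the family's sum in ENR control. Ces2a was 732, 682 and 676 CPM in ENR control and 104, 120.5 and 152 CPM in RANKL (log2 fold change -2.47 ± 0.11 (SE), adjusted p = 7.21e-11). Every RANKL library was far below every ENR control library.

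A pair of other Ces2 genes of the same locus moved in contrary ways, Ces2e down and Ces2f up. Ces2e was 143, 155 and 141 CPM in ENR control and 30.3, 37.1 and 30.9 CPM in RANKL (log2 fold change -2.16 ± 0.10 (SE), adjusted p = 5.18e-11). Ces2f was 1.92, 0.666 and 2.06 CPM in ENR control and 62.9, 61.9 and 76.1 CPM in RANKL (log2 fold change 5.55 ± 0.22 (SE), adjusted p = 1.14e-11). Ces2f was thus nearly silent in the control cultures and plainly transcribed with RANKL, with no overlap between the groups for either gene. In the same locus, Ces2c, known as a neutral lipid hydrolase of the intestine, fell by 0.58 ± 0.11 (log2, SE). Ces2g was 144, 150.3 and 129.6 CPM in ENR control and 101, 120.03 and 135 CPM in RANKL (log2 change -0.26 ± 0.10, adjusted p = 0.0435). The RANKL libraries of Ces2g overlapped the control, and it passed in only 2 of the 6 fits that omitted 1 library, failing with library 1 or 2 of ENR control or library 1 or 2 of RANKL omitted (adjusted p 0.102 to 0.241, log2 change -0.26 to -0.15).

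The 9 Ces2 and Ces3 genes lie together at chr8:104734003-105093929 (GRCm38, GENCODE M21), Ces2a at 104734003-104741634, Ces2e at 104926260-104934672 and Ces2f at 104947356-104960047, all on the plus strand. The 250 bases before the RefSeq transcription start of these 3 genes (GRCm38.p6) are shown because the neighbours moved in opposite directions. Capitals mark AACTTTGCCCC, the longest word that the 3 windows share, chosen after they were compared. It lies on the printed strand and was found on either strand in 6 of the 32851 promoter windows of that length (0.0183%). These 3 windows are among the 6, and the word was picked because they share it, so that share is no independent background. None of these 3 windows holds GCGTG, the motif shown with Cyp1a1.
Ces2a, chr8:104733753-104734002, plus strand, word from base 71 before the start: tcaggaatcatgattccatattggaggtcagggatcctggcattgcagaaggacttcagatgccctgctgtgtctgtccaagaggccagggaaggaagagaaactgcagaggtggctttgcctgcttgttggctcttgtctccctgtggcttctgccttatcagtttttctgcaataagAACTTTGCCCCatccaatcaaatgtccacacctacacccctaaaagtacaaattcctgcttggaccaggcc
Ces2e, chr8:104926010-104926259, plus strand, word from base 81 before the start: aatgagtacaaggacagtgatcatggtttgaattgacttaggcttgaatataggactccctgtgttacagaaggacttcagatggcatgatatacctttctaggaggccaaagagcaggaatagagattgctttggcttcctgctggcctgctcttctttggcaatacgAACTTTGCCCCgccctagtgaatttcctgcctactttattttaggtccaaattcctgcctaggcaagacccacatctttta
Ces2f, chr8:104947106-104947355, plus strand, word from base 93 before the start: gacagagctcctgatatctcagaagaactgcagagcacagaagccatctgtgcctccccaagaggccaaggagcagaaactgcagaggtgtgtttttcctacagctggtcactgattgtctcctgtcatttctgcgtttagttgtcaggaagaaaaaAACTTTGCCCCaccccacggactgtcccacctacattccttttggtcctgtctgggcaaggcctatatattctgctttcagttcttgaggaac
The word is common to the 2 genes that fell and the 1 that rose.

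Ces3a, in the same locus, had 1 count in the 3 ENR control libraries together and 81 in the RANKL libraries. This is a ratio of 55.1 with a 95% exact binomial interval of 9.61 to 2201, which covers counting error only, and it was called higher (adjusted p = 4.06e-06). Ces3a shares 29.3% of its 42-base words, mostly with Ces3b. In the Ces1 locus on chromosome 8, Ces1d, which hydrolyses triacylglycerol, was 12.7, 15.9 and 12.1 CPM in ENR control and 3.82, 3.05 and 2.17 CPM in RANKL (log2 fold change -2.16 ± 0.21 (SE), adjusted p = 4.12e-07). Ces1e fell by 1.47 ± 0.22, and both were lower in every RANKL library. Ces1b rose from 0, 0.533 and 1.14 to 2.24, 2.26 and 1.896 CPM (log2 change 1.99 ± 0.52), while Ces1f was not called (-0.28 ± 0.23). Ces1g (-1.19 ± 0.41) was called lower, but not with RANKL library 2 or 3 omitted (adjusted p 0.0618 and 0.0669, log2 change -1.10 to -1.05), and it was too low for the test with ENR control library 2 or RANKL library 1 omitted.

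Among the P450s, 6 of 26 tested members were higher and 12 lower with RANKL, with a median log2 change of -0.20. Cyp1a1, the classic target of AHR that oxidises polycyclic aromatic compounds, had 2 counts in the ENR control libraries together and 142 in the RANKL libraries. Its levels were 0, 0.133 and 0.228 CPM in ENR control and 6.62, 5.65 and 4.47 CPM in RANKL, a ratio of 48.3 (95% exact binomial interval 13.1 to 402), called at adjusted p = 2.28e-07. Cyp1b1, also known as an AHR target, was 1.54, 1.47 and 2.28 CPM in ENR control and 1.68, 2.49 and 2.17 CPM in RANKL, which overlap (log2 change 0.30 ± 0.33, adjusted p = 0.443). Cyp1a2 had no count in any ENR control or RANKL library. The 250 bases before the Cyp1a1 start (RefSeq, GRCm38.p6) are shown since the gene went from almost no reads to a clear signal. Capitals mark GCGTG, the core bound by AHR with ARNT, found on either strand in 28.2% of all windows and in 24 of the 147 member windows (16.3%).
Cyp1a1, chr9:57697363-57697612, plus strand, core from base 54 before the start: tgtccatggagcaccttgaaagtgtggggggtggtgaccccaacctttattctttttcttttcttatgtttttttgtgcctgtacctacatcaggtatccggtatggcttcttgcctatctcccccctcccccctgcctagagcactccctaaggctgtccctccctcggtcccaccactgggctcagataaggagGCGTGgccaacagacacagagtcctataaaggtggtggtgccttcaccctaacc
Windows were matched for 129 of the 153 members. A match describes letters in a window, not binding.

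In the Cyp2 family, 3 of 14 tested members were higher and 7 lower, with a median log2 change of -0.58. Cyp2c genes on chromosome 19 split within one cluster. Cyp2c55, an intestinal P450 that acts on fatty acids, was 43.6, 33.1 and 32.2 CPM in ENR control and 75.2, 58.7 and 64.6 CPM in RANKL (log2 fold change 0.87 ± 0.12 (SE), adjusted p = 2.39e-05). Its neighbour Cyp2c65 was 70.7, 82.9 and 68.8 CPM in ENR control and 39.5, 30.6 and 28.2 CPM in RANKL (log2 fold change -1.18 ± 0.12 (SE), adjusted p = 7.61e-07). The groups did not overlap for either gene, one being higher in every RANKL library and the other lower. Cyp2c65 shares 25.9% of its 42-base words, mostly with Cyp2c66, which was also lower (-0.59 ± 0.17). Cyp2c38 fell from 3.26, 4.26 and 4.798 to 0.898, 0.339 and 0.542 CPM (log2 change -2.74 ± 0.36).

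Of the 14 tested Cyp2 genes, 7 were lower and 3 higher with RANKL. Cyp2u1, a hydroxylase of long-chain fatty acids, was 11.9, 12.9 and 11.7 CPM in ENR control and 3.25, 1.92 and 1.62 CPM in RANKL (log2 fold change -2.40 ± 0.23 (SE), adjusted p = 2.94e-07). Cyp2d26 fell by 1.35 ± 0.17 and Cyp2j9 by 1.04 ± 0.17 (log2, SE), each lower in all 3 RANKL libraries. Cyp2d34, in the same cluster as Cyp2d26, rose from 1.73, 2.53 and 1.83 to 5.28, 8.59 and 6.64 CPM (1.70 ± 0.28). Cyp2b10, the usual target gene of CAR, was 15.2, 13.7 and 11.9 CPM in ENR control and 14.8, 13.3 and 11.5 CPM in RANKL, and the groups overlapped (log2 change -0.04 ± 0.15). Cyp2s1 (0.15 ± 0.11; 0.33, called, with GC offsets) and Cyp2j6 (0.17 ± 0.09), the family's top transcript in ENR control by CPM, did not pass either. Cyp2c29 was called higher (0.65 ± 0.26, adjusted p = 0.0447), but not with library 1 or 2 of ENR control or library 1 or 2 of RANKL omitted (adjusted p 0.0611 to 0.206, log2 change 0.44 to 0.72).

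The 3 tested Cyp3a genes, the class that handles the widest range of drugs in the liver and gut, all passed but not in one direction. Cyp3a13, a form known from the intestine, was 31.9, 30.1 and 28.8 CPM in ENR control and 70.7, 60.4 and 61.3 CPM in RANKL (log2 fold change 1.08 ± 0.10 (SE), adjusted p = 2.47e-07). Cyp3a11, the main form of mouse liver, was 7.68, 5.997 and 8.68 CPM in ENR control and 3.48, 2.71 and 2.84 CPM in RANKL (log2 fold change -1.27 ± 0.23 (SE), adjusted p = 0.000195). Cyp3a25 fell from 7.296, 6.797 and 5.94 to 1.46, 1.13 and 1.22 CPM (log2 change -2.38 ± 0.25), and shares 34.4% of its 42-base words, mostly with Cyp3a59. Cyp3a13 was thus higher, and Cyp3a11 and Cyp3a25 lower, in every RANKL library. The 2 genes that fell lie together at chr5:145345279-146113287, and Cyp3a13 lies apart at chr5:137892932-137921619.

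Of the Cyp4 genes, fatty acid omega-hydroxylases, 1 of 7 was higher, 3 were lower and none passed by 2-fold. Cyp4b1 was 24.2, 22.3 and 27.4 CPM in ENR control and 12.6, 11.5 and 12.9 CPM in RANKL (log2 fold change -0.99 ± 0.13 (SE), adjusted p = 9.77e-06), lower in each RANKL library. Cyp4f17 rose by 0.96 ± 0.17 (log2, SE), while Cyp4f14, which hydroxylates leukotriene B4, was 67.4, 55.97 and 72.2 CPM in ENR control and 77.1, 60.5 and 47.4 CPM in RANKL with overlapping groups (-0.06 ± 0.15). Cyp4f40 (-0.58 ± 0.19) and Cyp4v3 (-0.32 ± 0.12) were called lower. Cyp4f40 no longer passed with ENR control library 1 or RANKL library 2 or 3 omitted (adjusted p 0.0508 to 0.0787, log2 change -0.55 to -0.46). Cyp4v3 no longer passed with ENR control library 1 or 2 or RANKL library 1 or 2 omitted (adjusted p 0.0616 to 0.132, log2 change -0.31 to -0.27).

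**Figure D2:**
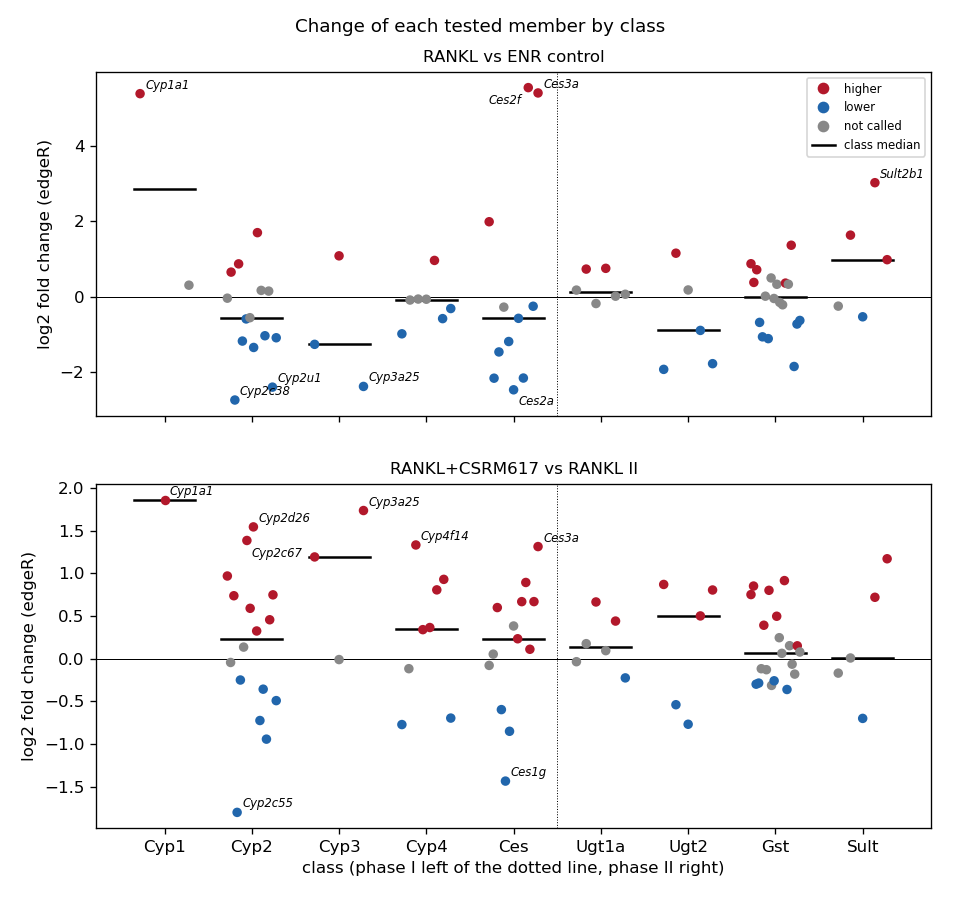
Log2 fold change (y axis, edgeR) of each tested member (points) by class (x axis), RANKL against ENR control above and RANKL+CSRM617 against RANKL II below, with the class median as a bar. With RANKL, Ces2f, Ces3a and Cyp1a1 lie above 5 while most Ces and Cyp2 points lie below 0; with CSRM617 the range is narrower, from Cyp2c55 at -1.80 to Cyp1a1 at 1.86.

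Glucuronosyltransferase transcripts were higher in sum with RANKL, and nearly all of the difference was in a single gene. The Ugt family summed to 348, 413 and 340.0 CPM in ENR control and 619, 613 and 539 CPM in RANKL, with no overlap. Ugt2b34 was 167, 204 and 163 CPM in ENR control and 425, 411 and 356 CPM in RANKL (log2 fold change 1.15 ± 0.10 (SE), adjusted p = 1.01e-07), and made up 67.3% of the family's sum in RANKL. No other tested Ugt2 gene was called higher. Ugt2a3 was 15.2, 16.9 and 13.9 CPM in ENR control and 3.704, 4.86 and 3.52 CPM in RANKL (log2 fold change -1.93 ± 0.18 (SE), adjusted p = 2.29e-07), lower in every library. Ugt2b5 fell by 1.78 ± 0.37 (46.9% of its 42-base words shared, mostly with Ugt2b38). Ugt2b35 was not called (0.18 ± 0.12), and was called lower with GC offsets (-0.32). Ugt2b36 was called lower (-0.90 ± 0.27), but not with ENR control library 2 omitted (-0.62, adjusted p 0.0929).

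The Ugt1a genes share their last exons and differ in the first, so reads of the shared exons cannot be given to one gene. Of the 6 tested, 2 were called higher with RANKL and none lower. Ugt1a6a was 5.95, 3.998 and 5.48 CPM in ENR control and 8.31, 9.04 and 7.99 CPM in RANKL (log2 fold change 0.75 ± 0.20 (SE), adjusted p = 0.00434), with no overlap. Ugt1a1, the bilirubin-conjugating form, was 22.7, 22.5 and 17.8 CPM in ENR control and 22.8, 23.8 and 25.2 CPM in RANKL, which just missed overlapping, and did not pass (0.17 ± 0.12, adjusted p = 0.243). Ugt1a7c, the most abundant by CPM, did not pass either (0.06 ± 0.09). Ugt1a2 was called (0.73 ± 0.28, adjusted p = 0.0347), but not with ENR control library 2 or RANKL library 1 or 2 omitted (adjusted p 0.0921 to 0.225, log2 change 0.39 to 0.67).

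Glutathione S-transferases overlapped in sum, at 551, 608 and 528 CPM in ENR control and 574, 535 and 517 CPM in RANKL. Tests called 5 of 18 members higher and 6 lower, 1 and 3 of them by at least 2-fold, and the median log2 change was -0.02. Subclasses differed in direction. The 3 tested theta genes on chromosome 10 all fell, led by Gstt1, which was 38.02, 38.1 and 37.7 CPM in ENR control and 11.3, 10.2 and 9.89 CPM in RANKL (log2 fold change -1.85 ± 0.12 (SE), adjusted p = 2.23e-09). Gstt2 (-0.73 ± 0.09) and Gstt3 (-0.63 ± 0.14) were lower in every RANKL library as well. Of the 3 pi genes on chromosome 19, Gstp3 was 14.2, 13.7 and 11.7 CPM in ENR control and 31.9, 36.5 and 34.4 CPM in RANKL (log2 fold change 1.36 ± 0.12 (SE), adjusted p = 1.64e-07). Gstp1 also rose (0.36 ± 0.10), while Gstp2 did not pass (0.33 ± 0.17), and these 2 share 35.5% and 56.4% of their 42-base words, mostly with each other.

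All 3 tested alpha genes were higher, and of the mu genes none was. Gsta4, which conjugates the lipid peroxidation product 4-hydroxynonenal, was 59.1, 65.97 and 56.4 CPM in ENR control and 101, 94.8 and 103 CPM in RANKL, with no overlap. Gsta1 rose by 0.87 ± 0.21 (91.6% of its 42-base words shared, mostly with Gm10639). Of 7 mu genes, Gstm1 (48.96, 65.4 and 56.7 CPM in ENR control, 26.9, 27.8 and 27.4 CPM in RANKL) and Gstm3 (-1.11 ± 0.26) fell and none rose; both share over 20% of their words with other genes. Gsto1, the top Gst by CPM in all 4 groups, was 162, 183 and 159 CPM in ENR control and 159, 146 and 129 CPM in RANKL and was not called (-0.22 ± 0.09, adjusted p = 0.059). Weak calls depended on single libraries. Gsta3 (0.38 ± 0.13, higher) no longer passed with ENR control library 1 or 3 or RANKL library 1 omitted (adjusted p 0.0763 to 0.136, log2 change 0.27 to 0.33). Gstk1, the mitochondrial and peroxisomal form (-0.68 ± 0.25, lower), did likewise with ENR control library 2 or 3 or RANKL library 1 omitted (adjusted p 0.056 to 0.0947, log2 change -0.67 to -0.58).

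Single sulfotransferases changed while the sums of the family overlapped. The 5 tested members gave 3 higher and 1 lower, while the family summed to 87.4, 100.6 and 76.1 CPM in ENR control and 107.6, 99.7 and 88.4 CPM in RANKL. Sult2b1, which sulfates cholesterol, was 2.88, 1.87 and 2.74 CPM in ENR control and 21.998, 19.3 and 17.7 CPM in RANKL (log2 fold change 3.02 ± 0.20 (SE), adjusted p = 4.53e-09). Sult1c2 was 7.49, 7.06 and 4.34 CPM in ENR control and 21.2, 21.4 and 17.3 CPM in RANKL (log2 fold change 1.63 ± 0.18 (SE), adjusted p = 1.36e-06). Both were higher in every RANKL library. Sult1d1, which sulfates catecholamines, made up 66.7% of the sum in ENR control and 41.4% in RANKL, and was 54.1, 70.1 and 51.9 CPM and 43.3, 40.9 and 38.3 CPM in those groups (log2 fold change -0.54 ± 0.11 (SE), adjusted p = 0.000913). Sult1b1 did not pass (-0.25 ± 0.15; -0.90, called lower, with GC offsets). Sult6b2 (0.98 ± 0.39, higher) no longer passed with ENR control library 2 or 3 or RANKL library 1 omitted (adjusted p 0.0597 to 0.208, log2 change 0.64 to 1.06).

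**Figure D3:**
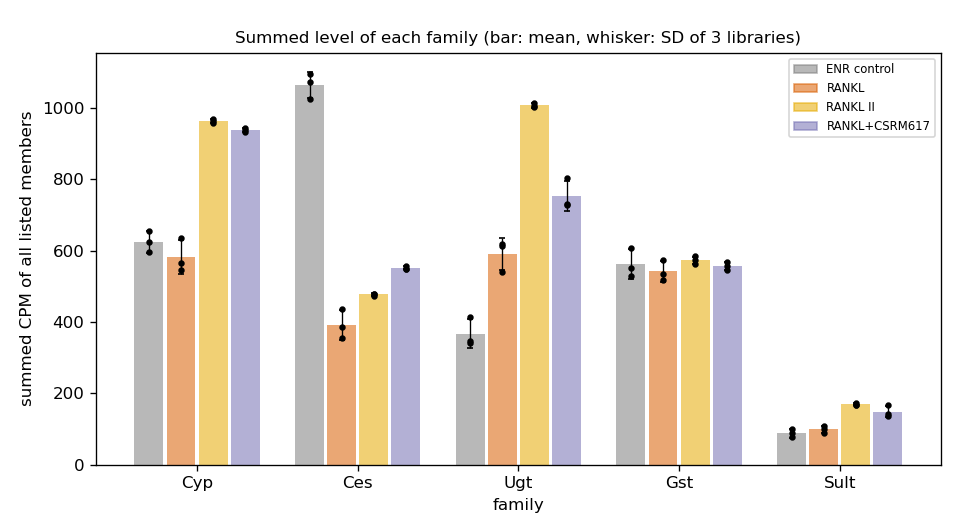
Summed CPM of all listed members of each family (y axis) in the 4 groups (x axis, colours); bars are means of 3 libraries, whiskers the SD and points single libraries. Ces is lower and Ugt higher in RANKL than in ENR control, and Gst lies between 517 and 608 CPM in all 12 libraries; RANKL and RANKL II come from tables scaled separately.

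In RANKL+CSRM617 against RANKL II, 37 of 77 tested members were higher and 19 lower. Among all 14167 genes tested, 35.2% were higher and 36.2% lower, 71.4% in all, against 72.7% of the members. By at least 2-fold, 8 members were higher and 2 lower, beside 4.92% and 8.18% of all genes. The groups did not overlap for 54 of the 56 called members (96.4%), beside 95.9% of all called genes. The median absolute log2 change was 0.50 over the members and 0.43 over all genes tested. Phase I genes were higher more often than lower, 23 against 11 of 41 (median 0.34), and phase II genes 14 against 8 of 36 (median 0.09). The median over all genes tested was -0.02. In this comparison the log2 change also ran with transcript GC content across all 13989 genes with a GC value (Spearman 0.58, a description across genes; -0.32 with RANKL). Across the members it was 0.11. With offsets that remove this trend in each library, 42 members were higher and 17 lower, beside 30.5% and 33.2% of all genes. Of the 56 calls, 42 kept their direction, 10 were lost and 4 reversed (Cyp2c65, Cyp2j6, Ugt2b34 and Sult1d1). The lost calls were those of Cyp2d34, Cyp2j5, Cyp4f16, Cyp4f17, Ces2h, Ugt1a7c, Ugt2b35, Gsta3, Gstm1 and Gstt2. Another 13 members were called with these offsets alone, among them Cyp2c66, Cyp3a13, Gstt1 and Sult1b1. DESeq2 called 34 higher and 17 lower, beside 31.4% and 30.3% of all genes.

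P450 genes made up 7 of the 10 changes of at least 2-fold. Of 28 tested, 16 were higher and 8 lower, with a median log2 change of 0.35. Cyp1a1 was 4.56, 3.92 and 3.92 CPM in RANKL II and 14.7, 15.6 and 14.5 CPM in RANKL+CSRM617 (log2 fold change 1.86 ± 0.13 (SE), adjusted p = 6.83e-17). Cyp1b1 was at 0.829, 1.24 and 0.721 CPM in RANKL II and 0.325, 0 and 0 CPM with CSRM617, too low for the test. The 3 tested Cyp3a genes gave 2 higher. Cyp3a11 was 2.38, 1.55 and 2.08 CPM in RANKL II and 5.19, 3.58 and 5.16 CPM with CSRM617 (log2 fold change 1.19 ± 0.22 (SE), adjusted p = 4.71e-06). Cyp3a25 rose from 0.829, 0.927 and 1.04 to 4.22, 2.77 and 2.74 CPM (1.73 ± 0.28). Cyp3a13 was 94.7, 89.02 and 93.5 CPM in RANKL II and 86.8, 90.2 and 97.7 CPM with CSRM617, which overlap (-0.01 ± 0.05), and with GC offsets it was called higher (0.48).

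Among the members tested with CSRM617, Cyp2c55 had the largest fall. It was 244, 259 and 258 CPM in RANKL II and 66.1, 73.8 and 77.7 CPM in RANKL+CSRM617 (log2 fold change -1.80 ± 0.04 (SE), adjusted p = 6.81e-32), and -1.29 with GC offsets. Its level had differed between the 2 RANKL sets, 58.7 to 75.2 CPM in RANKL and 243.8 to 259 CPM in RANKL II, values of tables scaled separately and set side by side with no test. Its neighbours in the Cyp2c cluster moved less or the other way. Cyp2c65 changed by -0.25 ± 0.06 (0.25 with GC offsets), and Cyp2c66 did not pass (0.14 ± 0.07; 0.64, called, with GC offsets). Cyp2c67 (1.38 ± 0.27) and Cyp2c68 (0.59 ± 0.09) rose, and share over 50% of their 42-base words, mostly with Cyp2c40. Cyp2c38 rose by 0.74 ± 0.25, which did not pass with RANKL II library 1 omitted (0.52, adjusted p 0.0746).

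Several other P450s rose with CSRM617. Cyp2d26 was 6.94, 6.08 and 8.17 CPM in RANKL II and 20.1, 21.01 and 21.3 CPM with CSRM617 (log2 fold change 1.54 ± 0.11 (SE), adjusted p = 8.64e-17). Cyp2b10 was 13.8, 12.98 and 12.3 CPM in RANKL II and 24.2, 26.96 and 24.6 CPM with CSRM617, with no overlap. Cyp4f14 was 77.1, 78.3 and 73.9 CPM in RANKL II and 192, 194 and 189.97 CPM with CSRM617 (log2 fold change 1.33 ± 0.04 (SE), adjusted p = 2.21e-30), and became the top P450 by CPM there, at 20.5% of the family's sum. Of the 6 tested Cyp4f genes, all on chromosome 17, 5 were higher and none was lower, among them Cyp4f40 (0.93 ± 0.10) and Cyp4f39 (0.81 ± 0.24); with GC offsets 2 of these calls, Cyp4f16 and Cyp4f17, were lost, and the sixth gene, Cyp4f13, was called lower (-0.39). Cyp2u1 (0.75 ± 0.16) and Cyp2s1 (0.46 ± 0.05) rose as well.

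The P450s called lower without GC offsets were Cyp2c55, Cyp2c65, 3 Cyp2j genes, Cyp2w1, Cyp4b1 and Cyp4v3. With GC offsets the Cyp2j5 call was lost, and Cyp2c65 and Cyp2j6 were called higher. Cyp2j9 was 7.77, 10.6 and 9.45 CPM in RANKL II and 4.65, 4.398 and 5.405 CPM with CSRM617 (log2 fold change -0.94 ± 0.15 (SE), adjusted p = 2.33e-07). Cyp2j6, an abundant fatty acid epoxygenase type, went from 136, 133 and 138 CPM to 107, 107 and 104 CPM (-0.36 ± 0.04), but was called higher with GC offsets (0.10). Cyp4b1 fell by 0.77 ± 0.17 and Cyp4v3 by 0.69 ± 0.07 (log2, SE). Cyp2j5, below 2.5 CPM throughout, did not pass with RANKL II library 3 or RANKL+CSRM617 library 2 omitted (adjusted p 0.0588 and 0.0752, log2 change -0.67 to -0.60).

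Carboxylesterases were slightly higher in sum, at 479, 479 and 473 CPM in RANKL II and 549, 556 and 549 CPM with CSRM617. Tests called 7 of 13 higher and 3 lower, and the median log2 change was 0.23. The Ces2 neighbours again parted. Ces2a was 75.5, 76.4 and 79.9 CPM in RANKL II and 42.4, 44.6 and 41.8 CPM with CSRM617 (log2 fold change -0.85 ± 0.05 (SE), adjusted p = 2.39e-18). Ces2e was 61.03, 62.5 and 57.2 CPM in RANKL II and 96.8, 95.04 and 94.7 CPM with CSRM617 (log2 fold change 0.67 ± 0.05 (SE), adjusted p = 1.5e-16). Ces2f was 59.3, 59.7 and 56.1 CPM in RANKL II and 105, 109 and 110.1 CPM with CSRM617 (log2 fold change 0.89 ± 0.05 (SE), adjusted p = 3.12e-21). So Ces2a was lower, and Ces2e and Ces2f higher, in all 3 treated libraries, and the GC offsets left these calls in place (-0.99, 0.66 and 0.93). Ces3a rose by 1.31 ± 0.15, Ces1e by 0.60 ± 0.10 and Ces2c by 0.23 ± 0.06 (log2, SE), and Ces2g moved by only 0.11 ± 0.03. Ces1g fell from 9.95, 8.04 and 9.05 to 3.57, 2.85 and 3.63 CPM (-1.43 ± 0.16) and Ces1f by 0.60 ± 0.11, while Ces1d (0.05 ± 0.09) and the low Ces2b (0.38 ± 0.35) did not pass. Ces2h (0.67 ± 0.28, higher) did not pass with RANKL II library 3 or RANKL+CSRM617 library 1 omitted (adjusted p 0.116 and 0.181, log2 change 0.47 to 0.54).

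**Figure D4:**
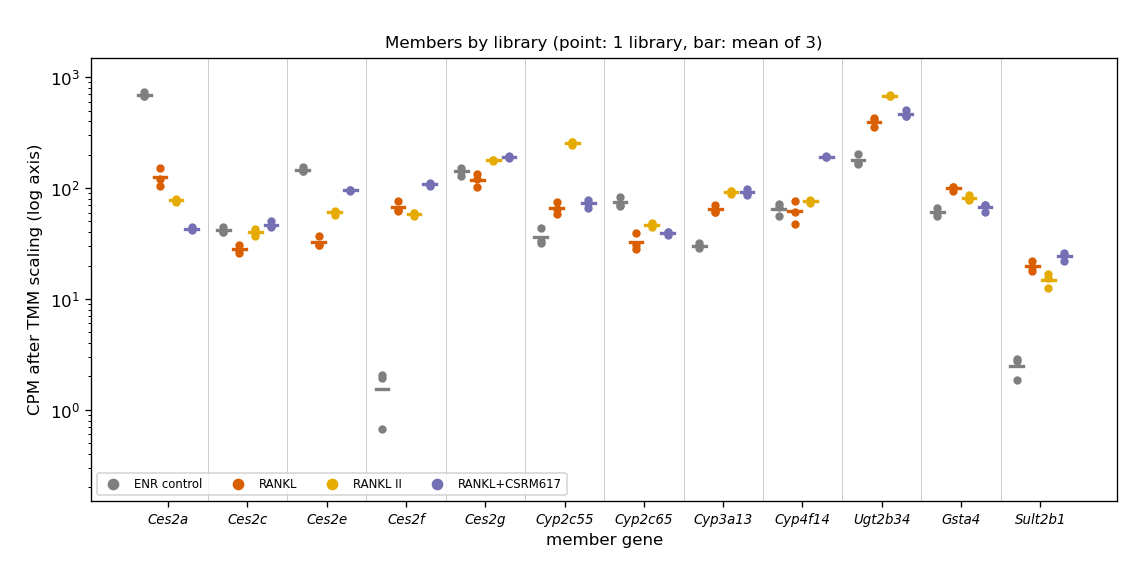
CPM (y axis, log scale) of 12 members in each of the 12 libraries (points; bars are means of 3), coloured by group, with RANKL and RANKL II from tables scaled separately. Ces2f is near 1.5 CPM in ENR control and above 56 in every other library, Ces2a declines from ENR control to RANKL and from RANKL II to RANKL+CSRM617, and Cyp2c55 stands at about 250 CPM only in RANKL II.

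Of the 22 phase II calls with CSRM617, 7 were lost or reversed with GC offsets, beside 7 of the 34 phase I calls. The Ugt family summed to 1014, 1001 and 1004 CPM in RANKL II and 729, 727 and 802 CPM with CSRM617. Ugt2b34 was 686, 676 and 679 CPM in RANKL II and 449.9, 448 and 506 CPM with CSRM617 (log2 fold change -0.54 ± 0.04 (SE), adjusted p = 1.24e-11). Ugt2b35 was 116, 113 and 113 CPM in RANKL II and 59.9, 64.99 and 75.3 CPM with CSRM617 (log2 fold change -0.77 ± 0.05 (SE), adjusted p = 2.08e-13). Both groups were fully apart for these genes, whose transcripts have a GC content of 39.7% and 39.3%, below the median of all tested genes (49.6%). With GC offsets, Ugt2b34 was called higher (0.22) and Ugt2b35 was not called (0.04). The other 3 Ugt2 genes rose: Ugt2a3 (0.87 ± 0.16), Ugt2b5 (0.80 ± 0.24) and Ugt2b36 (0.50 ± 0.16). In the Ugt1a genes, Ugt1a5 (0.66 ± 0.09) and Ugt1a6b (0.44 ± 0.10) were higher, Ugt1a7c lower (-0.22 ± 0.04; -0.04, not called, with GC offsets), and Ugt1a1 (-0.03 ± 0.06) and Ugt1a6a (0.09 ± 0.12) did not pass.

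Glutathione S-transferases again overlapped in sum, at 563, 583 and 572 CPM in RANKL II and 556, 569 and 545 CPM with CSRM617. Of 20 tested, 7 were higher and 4 lower, none by 2-fold, and 5 higher and 8 lower with GC offsets. Gsta4 was 77.7, 80.4 and 86.7 CPM in RANKL II and 70.3, 70.9 and 60.8 CPM with CSRM617 (log2 fold change -0.29 ± 0.05 (SE), adjusted p = 1.4e-05), and Gstp1 fell by 0.36 ± 0.05. Gstm3 (0.80 ± 0.16), Gsta1 (0.75 ± 0.13), Gsta2 (0.85 ± 0.27) and Gsto2 (0.91 ± 0.25) rose, Gsta2 and Gsto2 from under 3 CPM. Gstm1 was 21.4, 19.6 and 22.5 CPM in RANKL II and 27.5, 29.1 and 27.1 CPM with CSRM617 (log2 change 0.39 ± 0.08), a call lost with GC offsets (0.11). Gsta3 was called lower (-0.30 ± 0.06) and lost that call with GC offsets (0.11). Gsto1 (0.06 ± 0.03), Gstt1 (-0.18 ± 0.11) and Gstk1 (-0.12 ± 0.19) were not called. The weak calls of Gstm5 (-0.26 ± 0.10) and Gstt2 (0.15 ± 0.06) were lost with RANKL II library 2 or 3 or RANKL+CSRM617 library 2 omitted, with adjusted p 0.0522 to 0.113 for Gstm5 (log2 change -0.25 to -0.19) and 0.0694 to 0.11 for Gstt2 (0.13 to 0.15).

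Of the 5 tested sulfotransferases, 2 were higher and 1 lower with CSRM617. Sult2b1 was 16.7, 15.5 and 12.4 CPM in RANKL II and 25.97, 21.7 and 25.1 CPM with CSRM617 (log2 fold change 0.72 ± 0.10 (SE), adjusted p = 1.15e-08). Sult6b2 rose from 1.97, 1.96 and 2.32 to 4.65, 5.29 and 4.28 CPM (1.17 ± 0.20). Sult1d1 was 73.7, 74.3 and 80.9 CPM in RANKL II and 39.2, 45.8 and 55.02 CPM with CSRM617 (log2 fold change -0.70 ± 0.10 (SE), adjusted p = 0.000173). Its transcripts have the lowest GC content of the tested members, 33.5%, and with GC offsets the change had the opposite sign and was called (0.82). Sult1b1 (-0.17 ± 0.10) and Sult1c2 (0.01 ± 0.06) were not called, and both were called higher with GC offsets (0.85 and 0.42). No direction can therefore be given for Sult1b1, Sult1c2 and Sult1d1 with CSRM617.

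Set side by side, 21 of the 70 members tested in both comparisons (30%) were called in opposite directions, the same share as among all 13254 genes tested in both (30%). The comparisons share no library. The group lower with RANKL and higher with CSRM617 held 16 members (22.9%), beside 14.3% of all genes. It held Cyp2c38, Cyp2d26, Cyp2u1, Cyp3a11, Cyp3a25 and Cyp4f40, the esterases Ces1e, Ces2c, Ces2e and Ces2g, Ugt2a3, Ugt2b5 and Ugt2b36, and Gstm1, Gstm3 and Gstt2. With GC offsets in both comparisons, 14 of these kept both calls. When 1 library was left out, Ces2g, Cyp4f40 and Ugt2b36 could lose the RANKL call, and Cyp2c38 and Gstt2 the CSRM617 call. By DESeq2, Ces2g was not called with RANKL, and Ugt2b36 and Gstt2 were not called with CSRM617. The reverse pattern, higher with RANKL and lower with CSRM617, held 5 members (7.14%), beside 15.6% of all genes: Cyp2c55, Ugt2b34, Gsta3, Gsta4 and Gstp1. Of these, 3 kept both calls with GC offsets, Cyp2c55, Gsta4 and Gstp1. Another 8 members were higher in both (11.4%, beside 7.7% of all genes), among them Cyp1a1, Ces2f, Ces3a and Sult2b1, and 5 of the 8 kept both calls with GC offsets. A further 8 were lower in both (11.4%, beside 5.62%), among them Ces2a, Ces1g, Cyp2j9 and Cyp4b1, and 5 kept both calls, while Cyp2c65 and Sult1d1 reversed with CSRM617 and Cyp2w1 lost its RANKL call.

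**Figure D5:**
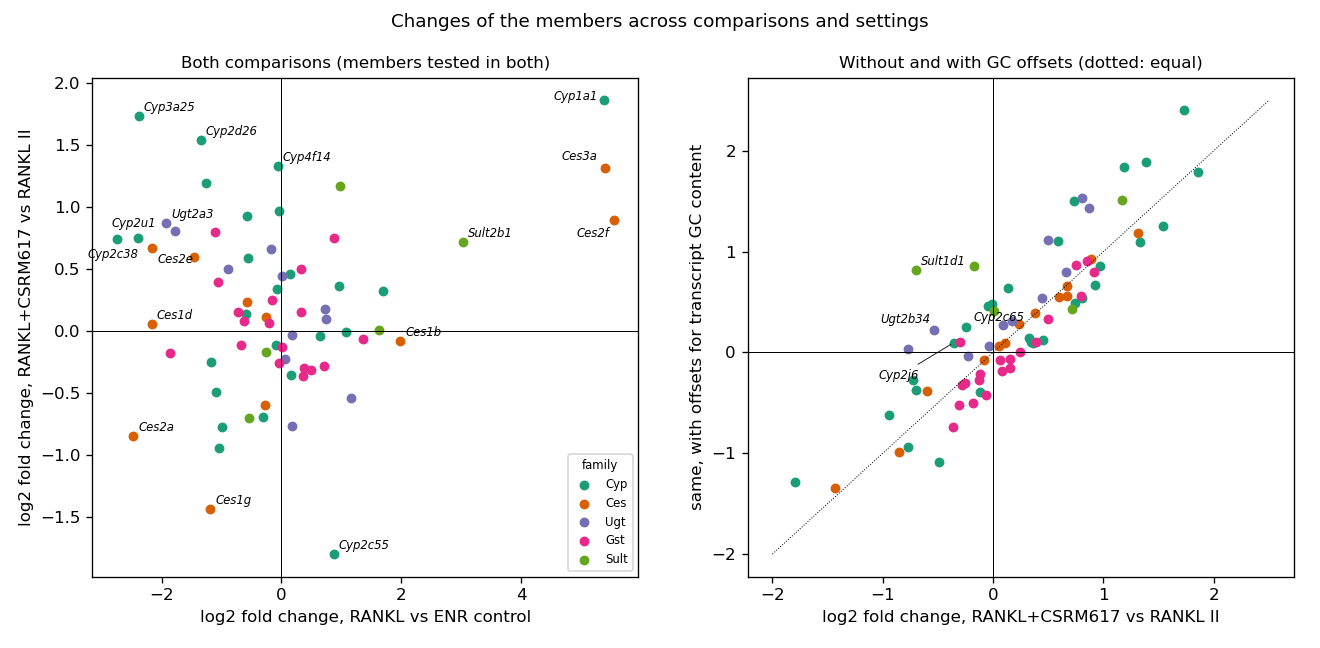
Left, log2 fold change with RANKL (x axis) against that with CSRM617 (y axis) for the 70 members tested in both, coloured by family; Cyp3a25 and Cyp2d26 lie at upper left, Cyp2c55 at lower right. Right, log2 fold change with CSRM617 without (x axis) and with (y axis) offsets for transcript GC content for 77 members, where the 4 named genes were called in opposite directions.

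In some clusters all tested members were called in one direction, and in others they were not. The former held few tested genes, and a link with position was not tested. Of all genes tested, 28% were lower with RANKL, and 35.2% were higher and 36.2% lower with CSRM617. Members lie in 16 loci of at least 3 genes with under 500 kb between neighbours. At the theta Gst locus (chr10:75774115-75837424), 3 of 3 tested genes were lower with RANKL, and at the Cyp3a locus of chromosome 5, 2 of 2 were lower with RANKL and 2 of 2 higher with CSRM617. At the Cyp2j locus (chr4:96027534-96664154), 3 of 3 tested genes were lower with CSRM617, but with GC offsets Cyp2j9 alone was, Cyp2j5 was not called and Cyp2j6 was higher. The Ces2 and Ces3 locus (chr8:104734003-105093929) instead spanned log2 changes of -2.47 to 5.55 with RANKL. The Cyp2c locus (chr19:39007019-40187333) spanned -2.74 to 0.87 with RANKL and -1.80 to 1.38 with CSRM617. The locus of chromosome 5 that holds both Ugt2 and Sult1 genes (chr5:86889767-87591594) gave 1 higher and 4 lower of 7 with RANKL. A locus of 8 Sult members on chromosome 7 had none tested.

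Other genes of xenobiotic handling were followed in a list of 56, of which 51 were tested with RANKL (17 higher, 11 lower, median 0.02; 28.7% and 28% of all genes) and 52 with CSRM617 (32 higher, 12 lower, median 0.38; 35.2% and 36.2% of all genes). With GC offsets the CSRM617 counts were 33 and 7. Among the receptors and regulators, 3 of 12 were higher and 5 lower with RANKL, and 8 of 12 higher and 1 lower with CSRM617. Ahr was 34.2, 34.4 and 30.4 CPM in ENR control and 108, 110.2 and 118 CPM in RANKL (log2 fold change 1.76 ± 0.09 (SE), adjusted p = 2.66e-10). In RANKL II it was 114, 116 and 107 CPM and with CSRM617 108, 115 and 113 CPM, which overlap (0.0012 ± 0.04; 0.15, called higher, with GC offsets). The AHR-induced gene Tiparp was not called with RANKL (-0.20 ± 0.14), but was called lower with GC offsets (-0.56). Ahrr, also AHR-induced, was not tested with RANKL. Tiparp was lower with CSRM617 (-0.60 ± 0.09), and not called with GC offsets (0.0017). Nr1i3, which encodes CAR, was 38.02, 29.9 and 42.96 CPM in ENR control and 10.6, 8.48 and 7.85 CPM in RANKL (log2 fold change -2.02 ± 0.16 (SE), adjusted p = 3.06e-08), and 33.8, 32.5 and 33.4 CPM in RANKL II and 58.7, 56.5 and 56.2 CPM with CSRM617 (log2 fold change 0.78 ± 0.06 (SE), adjusted p = 1.03e-15). Nr1i2, which encodes PXR, went the same way, -0.79 ± 0.11 with RANKL and 0.94 ± 0.05 with CSRM617. Nfe2l2, which encodes NRF2, was higher in both (0.54 ± 0.08 and 0.71 ± 0.03).

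Genes that supply electrons and cofactors changed unevenly. Por, the P450 reductase, was not called with RANKL (-0.07 ± 0.09) and was 115, 118 and 124 CPM in RANKL II and 186, 193 and 181 CPM with CSRM617 (log2 fold change 0.65 ± 0.04 (SE), adjusted p = 1.37e-19). Cyb5b, a cytochrome b5 of the outer mitochondrial membrane, rose in both (0.62 ± 0.11 and 0.82 ± 0.03). Papss2, which makes the sulfate donor of the sulfotransferases, was 17.9, 13.3 and 19.2 CPM in ENR control and 236, 193 and 171 CPM in RANKL (log2 fold change 3.61 ± 0.15 (SE), adjusted p = 1.5e-11), and rose again with CSRM617 (0.96 ± 0.03). Gclc, the catalytic subunit for glutathione synthesis, was 53.2, 46.2 and 50.04 CPM in ENR control and 157, 177 and 175 CPM in RANKL (log2 fold change 1.77 ± 0.09 (SE), adjusted p = 2.25e-10), and was not called with CSRM617 (0.05 ± 0.03). Its partner Gclm was not called in either comparison. Among the other phase I enzymes, 5 of 10 were higher with RANKL and 9 of 11 with CSRM617, with 1 lower in each. Adh1, an alcohol dehydrogenase, rose in both (1.27 ± 0.08 and 0.77 ± 0.02). Of the 10 efflux and uptake transporters, all tested, 4 were higher and 1 lower with RANKL, beside 28.7% and 28% of all genes. With CSRM617, 6 were higher and 3 lower, beside 35.2% and 36.2% of all genes, and 6 and 2 with GC offsets. Of the export pumps, Abcb1a was not called with RANKL (-0.07 ± 0.09) and moved by -0.08 ± 0.03 with CSRM617, which passed in only 1 of the 6 fits that omitted 1 library (that without RANKL+CSRM617 library 3; elsewhere adjusted p 0.054 to 0.243, log2 change -0.08 to -0.05) and reversed with GC offsets (0.15). Abcg2 was not called with RANKL (0.25 ± 0.12), was lower with CSRM617 (-0.22 ± 0.05) and was higher with GC offsets (0.35).

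Cell type markers changed in both comparisons as well. With CSRM617, 10 of 10 enterocyte markers were higher, and they summed to 3960–4023 CPM in the libraries without CSRM617 and 9608–9934 CPM in those with it. With RANKL, 4 of them were higher (Apoa4, Apoa1, Alpi and Sis) and 6 lower (among them Fabp1, Fabp2, Mttp and Anpep), and the sum was 1469–1818 CPM in ENR control and 2625–3632 CPM in RANKL. All 8 M cell markers were higher with RANKL (58.0 to 63.7 CPM summed in ENR control, 946 to 1034 in RANKL), and 4 were higher and 4 lower with CSRM617 (974 to 992 and 978 to 1013 CPM). With GC offsets, 3 M cell markers were higher and 3 lower with CSRM617, and Ccl20 reversed (-0.38 without the offsets, 0.41 with them). Stem cell markers gave 3 of 5 lower with RANKL, among them Lgr5, and 1 higher, with sums of 2038 to 2376 and 619 to 960.3 CPM. With CSRM617, 3 of 5 were higher and 1 lower (176 to 186 CPM in RANKL II, 223 to 226 with CSRM617), and 1 higher and 2 lower with GC offsets. Paneth markers gave 4 of 5 lower with RANKL and 4 of 5 higher with CSRM617. Goblet markers gave 2 higher and 2 lower of 5 with RANKL and 4 higher and 1 lower with CSRM617, tuft markers 3 of 4 higher and 4 of 4 higher, and enteroendocrine markers 1 of 2 lower and 3 of 3 higher. With GC offsets, goblet markers gave 3 higher and 2 lower with RANKL, and 3 higher and 1 lower with CSRM617. Enteroendocrine markers then gave 2 of 3 higher with CSRM617. Of the immune list, Cd3e alone was tested, with CSRM617 only, and it was not called. Of the stromal and endothelial list, Pdgfra alone was tested, with RANKL only, and it was lower. Each of these 2 lists summed to at most 3.2 CPM. The part of these shifts in the changes of the enzymes was not tested. Of the 5 hepatocyte markers, Ttr alone was tested (0.71 with RANKL and -0.29 with CSRM617), beside Alb, Serpina1a and Fgb at 0.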

How the data were processed

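Libraries were made from 1 µg of total RNA with ribosomal RNA depletion and read as 42-base pairs, per the labels' protocols. The authors deposited raw read counts per gene, as whole numbers, in 2 tables of 6 libraries each, which list 55335 entries. STAR, HTSeq 0.13.5 and DESeq2 1.34.0 with mm10/GRCm38 are named, per the submitters' processing notes, without a role. For the STAR version, gene annotation and strand setting: not given in the sources used here. The deposited normalized tables were not used, and 0 columns were left unmapped.

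Each comparison was fitted on its own 6 libraries with edgeR 4.0.16 (R 4.3.3): filterByExpr, TMM, robust quasi-likelihood F test, Benjamini-Hochberg adjustment over all genes tested, called at an adjusted p under 0.05. The SE is the absolute log2 fold change before edgeR's shrinkage toward 0, divided by the root of F. The printed log2 fold changes are those after shrinkage, so for genes with few counts the SE need not match them. The script was tested on simulated data. P-values measure the spread between the 3 libraries of each group, all from 1 line. The RANKL II libraries lay close together: the members summed to 3179, 3194 and 3192 CPM, beside 2736, 2787 and 2591 CPM in ENR control. Why they lay so close was not tested. The p-values with CSRM617 rest on that narrow spread, which may be less than that between separate experiments. Members were picked by the form of the symbol, but the named genes and lists were chosen with earlier results of these data known. Named genes were 45 set by symbol, the 3 largest rises and falls per family and comparison, members called in opposite directions, and, of the pathway list, the 3 with the smallest p per comparison with Ahr, Nr1i2, Nr1i3, Por, Nfe2l2, Abcb1a and Abcg2; others are named to complete a count. Gene positions, exon lengths and GC content came from GENCODE M21, promoter windows from RefSeq. Alternatives were DESeq2 1.42.0, RLE or upper-quartile factors, no filter, a stricter filter (1 CPM in 3 libraries and 50 counts), the replicate number as a block, GC offsets (loess span 0.5) and leaving out each library. Values of single marker genes are given for some of each list, and the others are not reported here.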

Additional observations from a re-analysis of the deposited data

How the results depend on the processing

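The counts of members called stayed within 1.5 times the main counts in every alternative run. With RANKL they were 16 to 20 higher and 24 to 31 lower when 1 library was left out. Without a filter they were 21 and 34 of 110 tested (50% called, beside 32.7% of all genes). With CSRM617 they were 35 to 37 and 17 to 21 when 1 library was left out. Without a filter they were 37 and 20 of 115 tested (49.6% called, beside 38.9% of all genes). With the replicate number as a block (replicate block), 19 members were higher and 31 lower with RANKL (Cyp2c29 lost, Cyp2c68 and Gsto1 gained) and 37 and 20 with CSRM617 (Sult1b1 gained, none lost). These fits called 70.4% of the members with RANKL and 74% with CSRM617, beside 56.8% and 71.3% of all genes. Correlations of the deviations of same-numbered libraries were -0.011 to 0.057, so the numbers were not taken as pairs; the block moved Ahr with CSRM617 from near 0 to -0.000485.

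Median log2 changes of families without a filter were -0.40 (Ces), 0.17 (Ugt) and 0.015 (Sult) with RANKL and 0.52 (Cyp) with CSRM617. With GC offsets they were -0.015 (Ugt) with RANKL, and 0.47 (Cyp), 0.28 (Ces), -0.11 (Gst) and 0.82 (Sult) with CSRM617.

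Signs differed from the main values as follows, with GC offsets and then with replicate block and GC offsets together. With RANKL: Cyp2b10 0.033 and 0.035, Cyp2j6 -0.10 and -0.10, Cyp4f14 0.089 and 0.074, Ugt1a7c -0.011 and -0.0094, Ugt2b35 -0.32 and -0.31, Por 0.15 and 0.16, Abcg2 -0.088 and -0.089. With CSRM617: Cyp2c65 0.25 and 0.25, Cyp2j6 0.10 and 0.10, Cyp3a13 0.48 and 0.48, Ugt1a1 0.065 and 0.065, Ugt2b34 0.22 and 0.22, Ugt2b35 0.038 and 0.036, Gsto1 -0.074 and -0.074, Sult1b1 0.85 and 0.85, Sult1d1 0.82 and 0.82, Gsta3 0.11 and 0.11, Gstt2 -0.062 and -0.063, Abcb1a 0.15 and 0.15, Abcg2 0.35 and 0.35. With upper-quartile factors, Sult1c2 was -0.034 and Ahr -0.041 with CSRM617. When 1 library was left out, ranges that crossed 0 were -0.13 to 0.043 (Cyp2b10) and -0.26 to 0.087 (Cyp4f14) with RANKL. With CSRM617 they were -0.034 to 0.041 (Ahr), -0.051 to 0.039 (Cyp3a13), -0.27 to 0.078 (Gstk1), -0.053 to 0.055 (Sult1c2), -0.051 to 0.021 (Ugt1a1) and -0.065 to 0.23 (Ugt1a6a). The cause was not tested. At 5795541 to 14041947 counts per library, 75 of 153 members were too low for a test.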

Other observations

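P450 genes outside families 1 to 4, which mostly make sterols, bile acids and steroid hormones or clear retinoic acid, were sparse in the organoids: of 19 listed, 6 were tested with RANKL and 5 with CSRM617. Cyp51, the lanosterol demethylase of cholesterol synthesis, averaged 72.9 CPM in ENR control and 175 CPM in RANKL, a log2 change of 1.26, and changed by -0.33 with CSRM617. Cyp27a1, the mitochondrial sterol 27-hydroxylase, changed by -1.29 with RANKL. Cyp39a1, an oxysterol 7-alpha-hydroxylase, changed by -0.74 with RANKL and by -0.56 with CSRM617, and Cyp20a1 by -0.54 with CSRM617. Cyp26b1, which clears retinoic acid, changed by 0.45 with CSRM617. All of these passed an adjusted p of 0.05 by edgeR. With CSRM617, neither Cyp39a1 nor Cyp26b1 passed with GC offsets (-0.15 and 0.047, adjusted p 0.521 and 0.827 by edgeR) or by DESeq2 (adjusted p 0.0727 and 0.0883).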
